A study of Saccharomyces cerevisiae with 6 samples.

Results

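The transcripts described here encode the proteasome of budding yeast, together with RPN4, which encodes its transcriptional activator. Members are the rows of the array's annotation with one of a list of gene symbols, a rule that uses no measured value, though the list was drawn up with earlier results of these data known: 14 genes of the core particle, 18 of the regulatory particle and RPN4. All 33 were found among the 5711 genes measured, each with 1 spot. The strains were wt, ssy1KO and ssy1T9 of Saccharomyces cerevisiae. The array titles give the background S288C beside wt, and none is given for the mutants. By its name ssy1KO lacks SSY1, the gene of a plasma membrane amino acid sensor, and ssy1T9 carries another allele of it, which the labels describe no further. The sources used here state neither the growth medium and phase nor whether arrays came from separate cultures. RNA of every strain was compared with that of both others, on a dye-swapped pair of arrays each time, which gives 6 arrays. They are called KO/wt, T9/wt and T9/KO arrays below. Array 1 of a pair had wt in Cy5, or ssy1T9 where wt was absent, and array 2 had the dyes reversed.

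The proteasome degrades proteins marked with ubiquitin. Its core particle is a barrel of stacked rings, in which alpha subunits form the gate and beta subunits hold the proteolytic sites. The regulatory particle caps the barrel: a base with a ring of ATPases unfolds substrates, and a lid removes their ubiquitin. Rpn4 binds an element shared by the promoters of most of these genes and is itself a short-lived substrate of the proteasome, which closes a feedback loop.

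Values are log ratios of the strains, with the base taken as 2 and the direction likely, not stated (Cy5 over Cy3). The direction rests on SSY1, whose ratio in that sense fell in ssy1KO wherever the strain was hybridised. It read -1.65 and -1.10 against wt (KO/wt arrays) and -1.86 and -1.87 against ssy1T9 (T9/KO arrays). In ssy1T9 over wt SSY1 read 0.22 and 0.36 (T9/wt arrays). Read the other way, every sign below would turn. Each array was centred on the median of all genes, so a value of 0 is the change of the typical gene. A gene is called higher or lower at a Benjamini-Hochberg adjusted p under 0.05 over all 5711 genes in limma's fit to the 6 arrays. By that rule SSY1 was higher in ssy1T9 than in wt (0.36, adjusted p = 0.00302). Spread between arrays, possibly technical, is all that these p-values take into account. It is the spread left after a dye term, and most of its estimate for a gene was borrowed from other genes.

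Proteasome transcripts stayed close to the typical gene in both mutants, with most fitted values slightly above 0. Of the 33 members, 25 lay above 0 and 8 below in ssy1KO, and 20 and 13 in ssy1T9. Of all 5711 genes, 2865 lay above 0 and 2831 below in ssy1KO, and 2805 and 2882 in ssy1T9. These signs were not tested. In ssy1KO 1 of the 33 members was called higher than in wt, beside 13.8% of all genes, and 0 were called lower, beside 10.5%. In ssy1T9 0 members were called higher, beside 14.1% of all genes, and 0 lower, beside 12.1%. Between ssy1KO and ssy1T9 0 members were called in either direction, beside 0.14% of all genes higher and 0.158% lower in ssy1KO. At an unadjusted p under 0.05, limma gave 9 of the 33 members in ssy1KO, 4 in ssy1T9 and 0 between the mutants. Of all 5711 genes it gave 1991, 2083 and 310. A fit with robust moderation called the same numbers of members, 1, 0 and 0.

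Confidence intervals give the range of each change under this fit, with the arrays centred. In ssy1KO over wt, the 95% confidence intervals of all 33 members lay between -0.36, the lower end for PRE7, and 0.40, the upper end for RPN10. These ends correspond to a fall of 1.28-fold and a rise of 1.32-fold. In ssy1T9 over wt they lay between -0.35 (RPN13) and 0.36 (PUP1), and in ssy1KO over ssy1T9 between -0.25 (RPN1) and 0.31 (PRE9). With a limit of 0.5 on the log2 scale, 33 of 33 members had intervals inside the limit in each comparison. The limit was chosen after the values were seen, so this count is a description and no test. Of all genes, 88.1% had intervals inside it in ssy1KO, 87% in ssy1T9 and 99.4% between the mutants. The intervals are those of single genes and are relative to the typical gene. Without centring the values shift, with RPN10 at 0.40 in ssy1KO. If the arrays were technical repeats, differences between cultures lie outside these intervals.

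**Figure D1:**
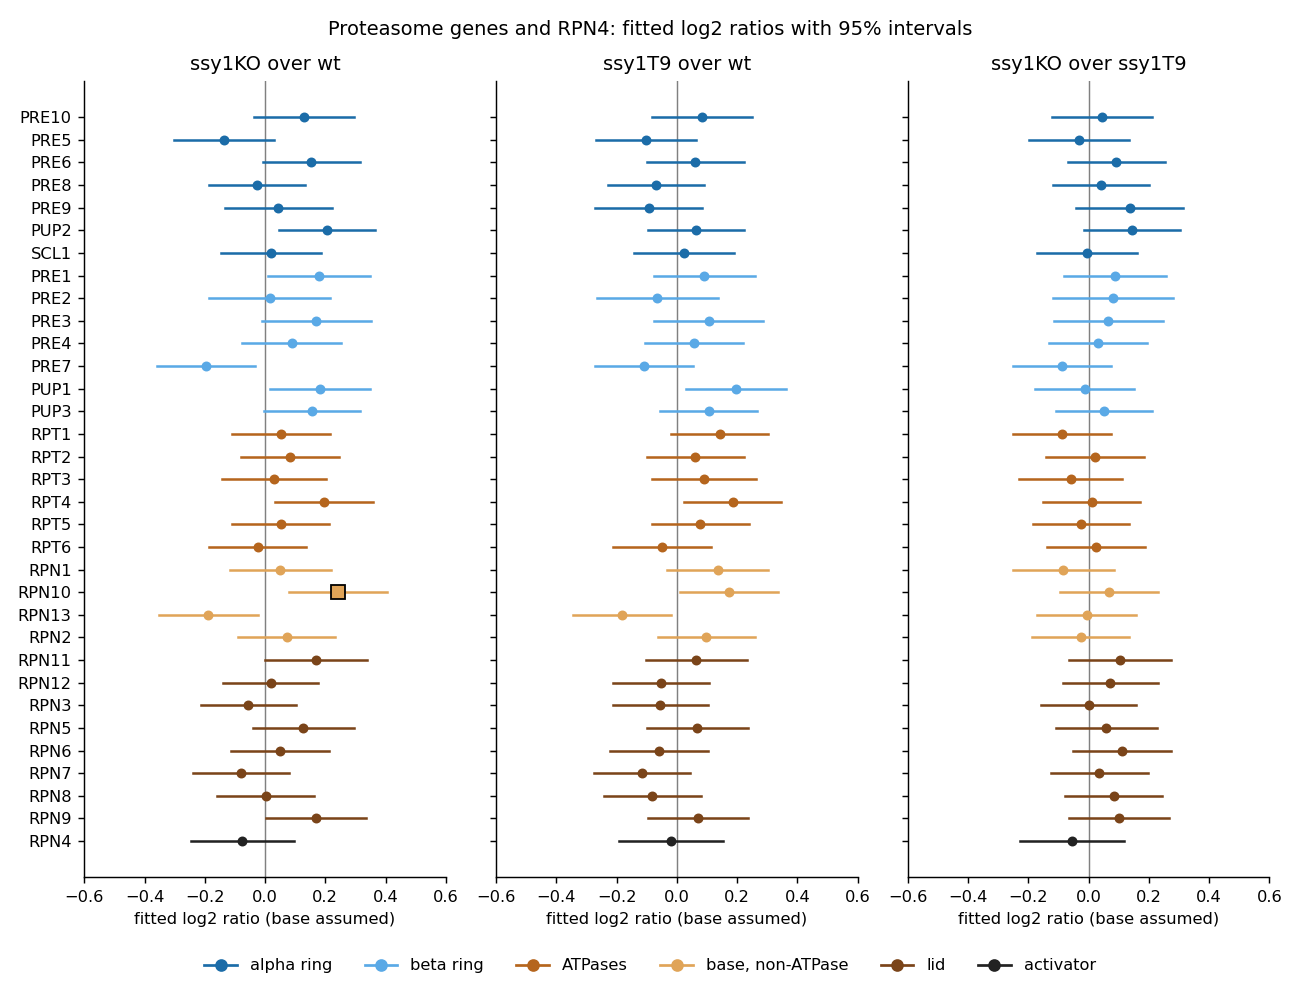
Fitted log2 ratios (x axis, base assumed) of the 33 genes (y axis) in each comparison, with points for the fitted value, lines for the 95% interval and colours for the part of the complex. The square marks RPN10 in ssy1KO over wt, the 1 value that was called. Every interval lies between -0.36 and 0.40.

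The centring carries part of this result. Without it, the median of all genes lay at 0.16 in ssy1KO and 0.17 in ssy1T9, and 12 and 10 members were called higher and 0 lower. On that scale 31.6% and 32.2% of all genes were called higher, beside 36.4% and 30.3% of the members. Of all calls, 92.1% were then rises in ssy1KO and 91.3% in ssy1T9, against 56.9% and 53.7% with centring. On either scale the median of the 32 subunit genes lay near that of all genes. It was 0.05 in ssy1KO with centring and 0.21 without, and in ssy1T9 it was 0.06 and 0.23. As deposited, the median of all genes was below 0 on all 6 arrays, from -0.58 on KO/wt array 1 to -0.08 on T9/wt array 2. What set these offsets was not tested.

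RPN4 read -0.33 and 0.03 in ssy1KO over wt on KO/wt arrays 1 and 2, and -0.11 and 0.22 in ssy1T9 over wt on T9/wt arrays 1 and 2. In ssy1KO over ssy1T9 it read 0.04 and 0.00. The arrays of each mutant with wt differed in sign. The fit gave -0.08 in ssy1KO (SE 0.08, adjusted p = 0.55) and -0.02 in ssy1T9 (SE 0.08, adjusted p = 0.895), with 95% intervals from -0.25 to 0.10 and from -0.19 to 0.15. Between the mutants it was at -0.06 (SE 0.08, adjusted p = 0.98). From the T9/KO arrays alone that difference was 0.02, and from the 4 other arrays -0.205. No fitted value of RPN4 passed, and Rpn4 protein was not measured on these arrays.

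Among alpha-ring genes of the core particle, 0 of 7 were called in either mutant. Of all genes, 24.3% were called in ssy1KO and 26.2% in ssy1T9, in either direction. The largest value was that of PUP2 in ssy1KO. It read 0.13 and 0.36 on KO/wt arrays, -0.05 and 0.10 in ssy1T9 over wt, and 0.06 and 0.15 in ssy1KO over ssy1T9. Both KO/wt arrays were above 0, and the fit gave 0.21 in ssy1KO (SE 0.08, adjusted p = 0.0538) and 0.06 in ssy1T9 (adjusted p = 0.604). PUP2 passed under 3 of 14 alternative settings in ssy1KO. SCL1, the core gene nearest to 0 by the larger of its absolute fitted values in ssy1KO and ssy1T9, read -0.10 and 0.24 on KO/wt arrays, -0.15 and 0.10 on T9/wt arrays and, with ssy1KO over ssy1T9, -0.05 and -0.06. The arrays of each pair with wt differed in sign, and the fit over all 6 arrays gave 0.02 in ssy1KO and 0.03 in ssy1T9. PRE6 was at 0.15 in ssy1KO and 0.06 in ssy1T9. PRE10 was at 0.13 and 0.09. PRE9, the gene of an alpha subunit that yeast can live without, was at 0.04 and -0.09. Below 0 in both mutants lay PRE8, at -0.03 and -0.07, and PRE5, at -0.14 and -0.10.

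Beside the same shares of all genes, 0 of the 7 beta-ring genes were called as well. Those for the proteolytic subunits did not stand out: PRE3, for the caspase-like site, was at 0.17 in ssy1KO and 0.11 in ssy1T9 (adjusted p = 0.169 and 0.422). PUP1, for the trypsin-like site, was at 0.18 and 0.20 (adjusted p = 0.1 and 0.0739). It was above 0 on all 4 arrays with wt, reading 0.18 and 0.32 in ssy1KO and 0.18 and 0.08 in ssy1T9, and -0.05 and -0.11 in ssy1KO over ssy1T9. PRE2, for the chymotrypsin-like site, was at 0.02 and -0.07. Its arrays with wt were far apart, at 0.22 and -0.47 in ssy1KO and 0.45 and -0.30 in ssy1T9.

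The 4 other beta-ring genes encode subunits without a proteolytic site. PRE7 had the lowest fitted value of all members in ssy1KO, -0.20 (SE 0.08, adjusted p = 0.0732), and was at -0.11 in ssy1T9. It read 0.11 and -0.40 on KO/wt arrays, 0.17 and -0.49 on T9/wt arrays and, with ssy1KO over ssy1T9, 0.24 and -0.52. In every pair the strain in the numerator was thus higher on array 1 and lower on array 2, whichever strain it was. PRE1 was at 0.18 in ssy1KO and 0.09 in ssy1T9. PUP3 was at 0.16 and 0.11. PRE4 was at 0.09 and 0.06.

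In the base of the regulatory particle, 0 of 6 ATPase genes were called in either mutant, beside 24.3% and 26.2% of all genes. RPT4 had the largest value, 0.20 in ssy1KO (SE 0.08, adjusted p = 0.0733) and 0.19 in ssy1T9 (SE 0.08, adjusted p = 0.0868). It read 0.42 and 0.08 on KO/wt arrays, 0.29 and -0.03 on T9/wt arrays and, with ssy1KO over ssy1T9, 0.19 and -0.28, higher on array 1 of each pair. RPT6, the regulatory gene nearest to 0 by the same measure, was at -0.03 in ssy1KO and -0.05 in ssy1T9. It read 0.14 and -0.28 on KO/wt arrays, 0.13 and -0.14 on T9/wt arrays and, with ssy1KO over ssy1T9, 0.15 and -0.01. The other ATPase genes were RPT1 at 0.05 and 0.14, RPT2 at 0.08 and 0.06, RPT3 at 0.03 and 0.09, and RPT5 at 0.05 and 0.08, in ssy1KO and ssy1T9 respectively.

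The base also holds ubiquitin receptors. RPN10 and RPN13, which each encode such a receptor, lay towards opposite ends of the range. RPN10 was the 1 member called. It read 0.14 and 0.40 in ssy1KO over wt on KO/wt arrays, 0.16 and 0.13 in ssy1T9 over wt, and 0.02 and 0.06 in ssy1KO over ssy1T9. It was above 0 on 6 of 6 arrays, and its transcript was 1.18-fold higher in ssy1KO (log2 0.24 over wt, SE 0.08, adjusted p = 0.0262). In ssy1T9 it was at 0.17 (SE 0.08, adjusted p = 0.111), and the difference between the mutants, 0.07, did not pass (adjusted p = 0.98). The call held under 6 of 14 alternative settings, with adjusted p from 0.00173 to 0.574 and values from 0.17 to 0.40. It was lost without KO/wt array 1 or 2, T9/wt array 1 or T9/KO array 1 (0.28, 0.17, 0.23 and 0.24, adjusted p = 0.11, 0.208, 0.0871 and 0.0708).

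RPN13, for another ubiquitin receptor, was at -0.19 in ssy1KO (SE 0.08, adjusted p = 0.088) and -0.18 in ssy1T9 (SE 0.08, adjusted p = 0.0966). It read -0.10 and -0.38 on KO/wt arrays, 0.00 and -0.26 on T9/wt arrays and, with ssy1KO over ssy1T9, 0.06 and 0.03, so none of the arrays with wt was above 0. The large scaffold genes of the base, RPN1 and RPN2, were at 0.05 and 0.07 in ssy1KO and at 0.14 and 0.10 in ssy1T9. The medians of the 4 genes of the base that encode no ATPase were 0.06 and 0.12.

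Of 8 lid genes 0 were called in either mutant, beside 24.3% and 26.2% of all genes. RPN11, which encodes the deubiquitinating enzyme of the lid, was at 0.17 in ssy1KO and 0.07 in ssy1T9 (adjusted p = 0.14 and 0.615). RPN8, for the partner it forms a dimer with, was at 0.00 and -0.08. RPN9 was at 0.17 and 0.07, and RPN5 at 0.13 and 0.07. RPN6 was at 0.05 and -0.06, RPN12 at 0.02 and -0.05. RPN3 was at -0.06 in both, and RPN7 at -0.08 and -0.12. In ssy1KO 6 of the 8 lay above 0, and in ssy1T9 3 did. In ssy1KO over ssy1T9 7 of the 8 were above 0 and RPN3 at 0.00, with a median of 0.08 and none called. Over the 33 members 21 lay above 0 and 11 below in that comparison, and over all genes 2965 and 2705. On T9/KO arrays 1 and 2 themselves, 7 and 5 of the 8 lid genes were above 0.

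Core and regulatory genes were set against each other in every comparison. In ssy1KO the median was 0.11 over 14 core genes and 0.05 over 18 regulatory genes, a difference of 0.06, beside 0.00 over all genes. In ssy1T9 the medians were 0.06 and 0.07, a difference of -0.01. In ssy1KO over ssy1T9 they were 0.05 and 0.02, a difference of 0.02. By array, core minus regulatory was -0.02 and 0.03 on KO/wt arrays, -0.03 and 0.02 on T9/wt arrays and 0.01 and 0.07 on T9/KO arrays. The sign differed between the arrays of each mutant with wt. From the KO/wt arrays alone the difference in ssy1KO was 0.00, and from the 4 other arrays it was 0.12. No member is a replicate of another, so no test was made of these medians.

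Medians were also taken within the particles, again with no test. The median of the beta ring was 0.16 in ssy1KO and 0.09 in ssy1T9, and that of the alpha ring 0.04 and 0.03. The ATPases had medians of 0.05 and 0.08, and the lid 0.03 and -0.05. Over the 32 subunit genes the SD of the fitted values was 0.112 in ssy1KO, 0.1 in ssy1T9 and 0.0635 between the mutants, where the median SE of a single gene was 0.0789. Over all genes the SDs were 0.303, 0.303 and 0.102. The spread among subunit genes was above the error of a single gene against wt, and below it between the mutants.

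**Figure D2:**
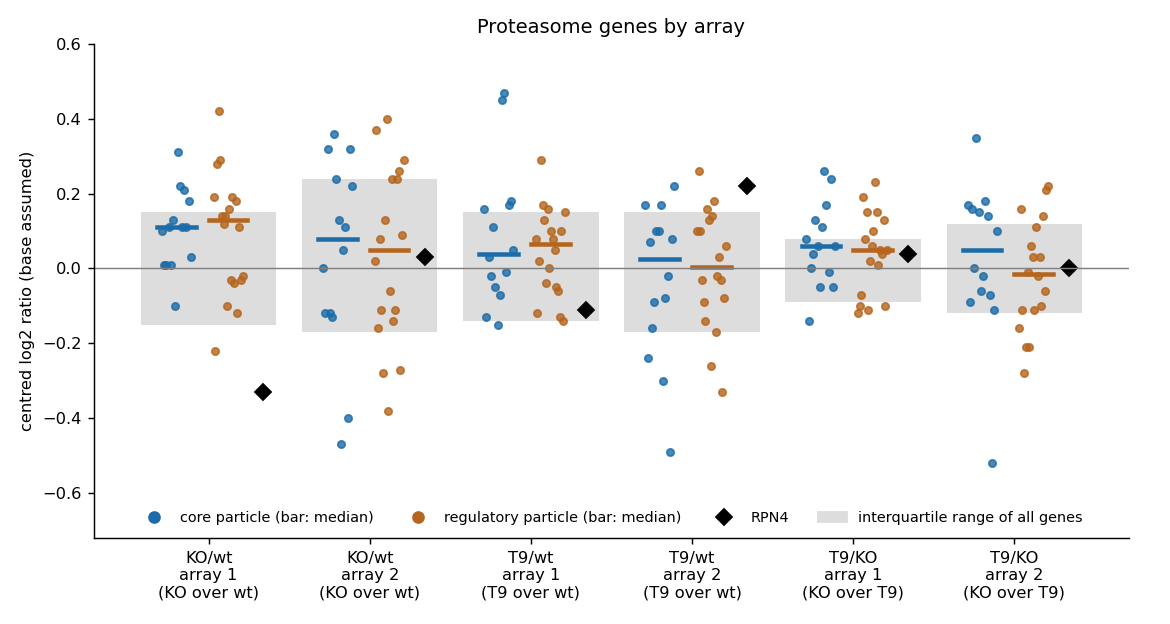
Centred log2 ratios (y axis, base assumed) of the 14 core genes, the 18 regulatory genes and RPN4 on each of the 6 arrays (x axis), with bars for medians and grey boxes for the interquartile range of all genes. Core and regulatory medians lie within 0.07 of each other on every array, and RPN4 falls to -0.33 on KO/wt array 1.

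Dye-swapped arrays of a pair did not repeat each other over these genes. Turned to the same direction, KO/wt arrays 1 and 2 correlated over the 32 subunit genes with r = -0.22 and T9/wt arrays with r = -0.26, and T9/KO arrays with r = -0.01. These are descriptions over genes that share arrays. Over all genes, turned in the same way, KO/wt arrays gave 0.55, T9/wt arrays 0.67 and T9/KO arrays 0.03. The ranges were unlike: on KO/wt arrays all genes ran from -3.63 to 4.09 and subunit genes from -0.47 to 0.42. No r was taken over other genes of so narrow a range, so low agreement is not shown to be particular to the subunit genes. Of the subunit genes, 14 of 32 agreed in sign between the KO/wt arrays, 16 of 32 between the T9/wt arrays and 19 of 32 between the T9/KO arrays, where 56.4%, 59.6% and 49.9% of all genes did.

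For some members the ratio followed the dye. The dye term of the fit passed for 4 of 33 members, beside 7.84% of all genes. Signal was lower in Cy5 for PRE7 (-0.32, adjusted p = 6.62e-04), PRE2 (-0.25, adjusted p = 0.0252) and RPT4 (-0.19, adjusted p = 0.0386), and higher for RPT2 (0.21, adjusted p = 0.0257). As every pair was dye-swapped, the fitted strain differences were the same with and without this term, which changed only their error. PRE7 in ssy1KO over wt was at -0.20 in both fits, with limma's adjusted p = 0.0732 with the term and 0.445 without. The direct difference of ssy1KO and wt differed from the one obtained through ssy1T9 by a median of 0.135 over the 33 members and 0.13 over all genes, with PRE2 farthest at -0.42.

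**Figure D3:**
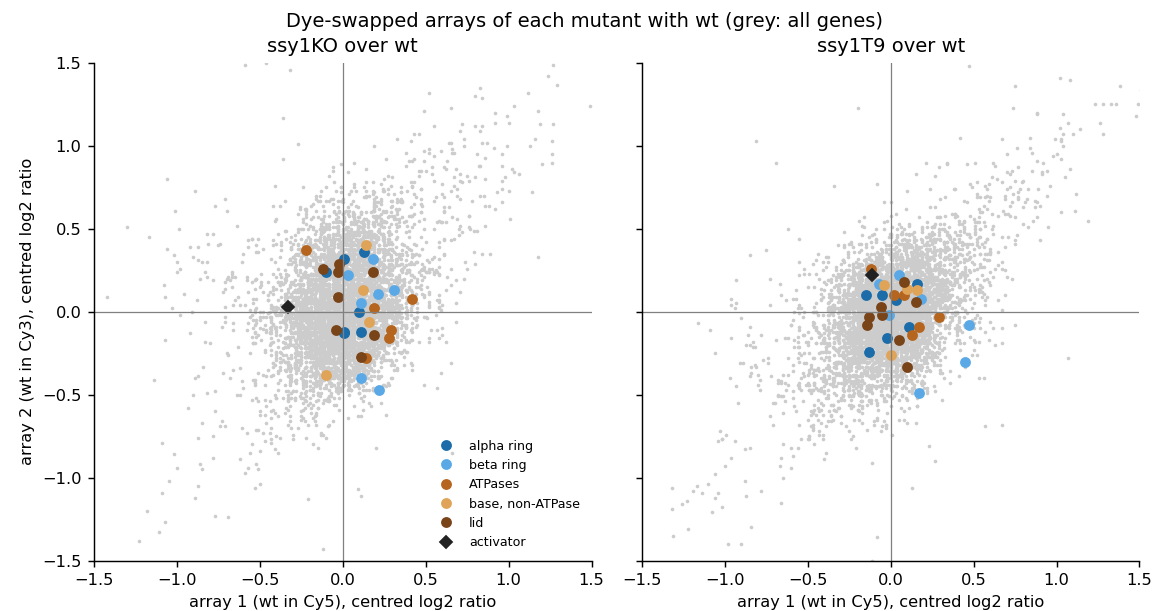
Centred log2 ratios of each mutant over wt on array 1 (x axis) against array 2 (y axis), with coloured points for the 33 genes and grey points for all genes. Genes beyond the axes are not drawn. The grey cloud stretches along the rising diagonal, and the proteasome genes, of narrower range, scatter around 0. Of the subunit genes 14 of 32 (left) and 16 of 32 (right) have one sign on both arrays, beside 56.4% and 59.6% of all genes.

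Genes that work beside the proteasome were counted in the same way, and no list was tested against another. Of 17 genes of assembly factors and associated proteins, 0 rose and 1 fell in ssy1KO, beside 13.8% and 10.5% of all genes, and 1 rose and 2 fell in ssy1T9, beside 14.1% and 12.1%. These counts were not above the shares of all genes. The medians were -0.01 and -0.03. Among the 17 is SEM1, the gene of a small lid subunit that the member list leaves out. It was at 0.18 in ssy1KO and 0.06 in ssy1T9 (adjusted p = 0.115 and 0.633). BLM10, for an alternative cap of the core particle, fell by 0.21 in ssy1KO (SE 0.08, adjusted p = 0.0464) and by 0.28 in ssy1T9 (SE 0.08, adjusted p = 0.00869), as the mean of 2 spots. It read -0.22 and -0.27 on KO/wt arrays and -0.26 and -0.25 on T9/wt arrays, all below 0. In ssy1KO its call was lost under 11 of 14 alternatives (adjusted p from 0.0102 to 0.706), and in ssy1T9 under 4. ECM29, for a protein that binds and stabilises the assembled proteasome, rose to 0.29 in ssy1T9 (adjusted p = 0.0107) and was at 0.21 in ssy1KO (adjusted p = 0.0631). CIC1, for a proteasome-interacting protein also known from ribosome assembly, fell by 0.26 in ssy1T9 (adjusted p = 0.0153) and was at -0.21 in ssy1KO (adjusted p = 0.0524). POC4, for an assembly chaperone of the alpha ring, was at -0.09 and -0.19 and did not pass.

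Of 20 genes that supply ubiquitin or bring marked proteins to the proteasome, 3 rose and 1 fell in each mutant, with medians of 0.05 in ssy1KO and 0.08 in ssy1T9. Both counts were near or below the shares of all genes, 13.8% higher and 10.5% lower in ssy1KO and 14.1% and 12.1% in ssy1T9. UBC5, for a ubiquitin-conjugating enzyme, read 0.24 and 0.73 in ssy1KO over wt and 0.35 and 0.08 in ssy1T9 over wt. It was 1.36-fold higher in ssy1KO (log2 0.44, SE 0.09, adjusted p = 6.54e-04) and 1.19-fold higher in ssy1T9 (log2 0.26, adjusted p = 0.0363). Cross-hybridisation with its close paralog UBC4, at 0.02 and 0.10, was not tested. DDI1, for a shuttle factor, was 1.29-fold and 1.22-fold higher (adjusted p = 0.00134 and 0.0092), above 0 on all 4 arrays with wt at 0.31, 0.56, 0.14 and 0.29. UFD1, for a cofactor of the Cdc48 segregase, rose to 0.25 in ssy1KO (adjusted p = 0.0204). DSK2, for another shuttle factor, rose to 0.25 in ssy1T9 (adjusted p = 0.024). The falls were UBP14 in ssy1KO, at -0.23 (adjusted p = 0.045), and RAD6 in ssy1T9, at -0.23 (adjusted p = 0.0348), both named after their values were seen.

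These calls depended on the settings to different degrees. UBC5 kept its call in ssy1KO under 11 of 14 alternatives and in ssy1T9 under 6, and DDI1 under 11 and 9. UFD1 kept it under 7 of 14 in ssy1KO, DSK2 under 7 in ssy1T9, ECM29 under 9 and CIC1 under 8 in ssy1T9. Between the mutants 0 of the 17 and 0 of the 20 genes were called by limma, beside 0.14% of all genes higher and 0.158% lower in ssy1KO. At an unadjusted p under 0.05 there were 1 and 2, beside 310 of all 5711 genes.

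Among 6 genes known to act on RPN4 or its product, 0 were called in ssy1KO and 2 in ssy1T9, beside 24.3% and 26.2% of all genes in either direction, so the count in ssy1T9 was near that share. HSF1, for the heat shock factor, rose to 0.34 in ssy1T9 (SE 0.08, adjusted p = 0.00269) and was at 0.18 in ssy1KO (adjusted p = 0.111). It read 0.39 and 0.18 on T9/wt arrays and 0.50 and -0.03 on KO/wt arrays. Its difference between the mutants, -0.16 in ssy1KO over ssy1T9, did not pass (adjusted p = 0.931). UBR2, for the ubiquitin ligase that marks Rpn4, fell by 0.22 in ssy1T9 (adjusted p = 0.0469), a call lost under 12 of 14 alternatives, and was at -0.12 in ssy1KO. MUB1, for the partner of that ligase, was at -0.10 and -0.05. YAP1, PDR1 and PDR3, for activators of RPN4 transcription, were at -0.04, -0.04 and 0.12 in ssy1KO and at 0.01, -0.01 and 0.10 in ssy1T9.

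**Figure D4:**
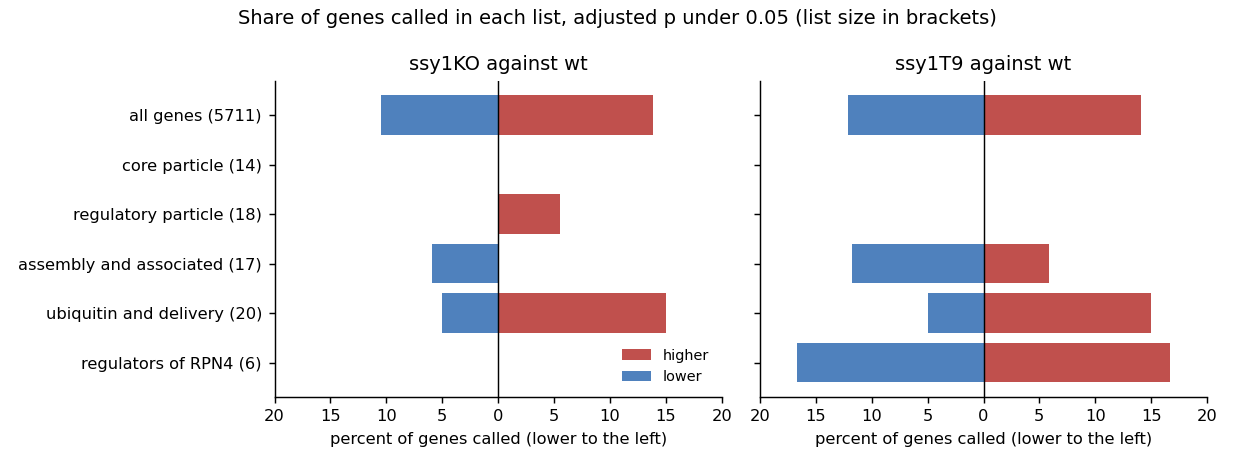
Percent of genes called higher (bars to the right) and lower (bars to the left) in ssy1KO and ssy1T9 against wt, for all 5711 genes, the core and regulatory particles and the 3 neighbouring lists (y axis, with list sizes). The core particle has no bar in either mutant, and the regulatory particle has 1 gene, RPN10, in ssy1KO.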

How the data were processed

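The deposited values, 1 per spot and array, were taken as log2 ratios. How the authors scanned, corrected and normalized the arrays, and the base and direction of the ratio, is not stated in the labels, and base 2 was assumed. Of 7744 rows 6116 carry 1 gene symbol in the platform annotation and 1628 none. Symbols were updated by gene identifier to R64 names for 6111 rows, and spots of a gene were averaged. Arrays were centred on their median over genes. One linear model (limma 3.58.1, R 4.3.3) with a dye intercept and terms for ssy1KO and ssy1T9 was fitted to the 6 arrays, with 3 residual and 20.7 prior degrees of freedom, tested two-sided. SE is the standard error of that fit, with a median of 0.08, and the number of arrays limits precision. The fit was also run on simulated data with independent noise of the size it had estimated. Such data cannot show how it behaves where dye-swapped arrays disagree, as they did here. Members and lists were chosen with earlier results of these data known. Named are all members, with array values for RPN4 and for the largest and smallest of each particle, and up to 4 genes per neighbouring list by size. Array values of other genes, and UBP14, RAD6, UBC4 and SEM1, were added after their values were seen. A planned promoter motif search was not made. Alternatives were other centring or scaling, no dye term, robust moderation, the first spot of a gene, the arrays of 1 path of the loop, and each array left out.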

Additional observations from a re-analysis of the deposited data

How the results depend on the processing

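Over 14 alternatives and 3 comparisons, 1386 values of single members were compared with the values reported: 1352 stayed on their side of the threshold, 8 lost a call, 26 gained one and 0 of the called values changed sign. Of the values called in neither setting, 130 had another sign. The number of members called in ssy1KO, 1 as reported, was 12 without centring, 2 with centring on all rows, 0 with arrays scaled to one spread, 0 without the dye term, 0 from the 2 KO/wt arrays alone, 0 from the 4 other arrays, and 0 to 4 with single arrays left out. Without T9/KO array 2 it was 4 (PUP2, RPT4 and RPN10 higher, RPN13 lower), and without KO/wt array 2 the 1 call was PRE7, lower. In ssy1T9 it was 10 without centring and 0 otherwise. Core minus regulatory in ssy1KO was 0.0025 from the KO/wt arrays, 0.12 from the 4 other arrays and 0.0189 to 0.0939 with single arrays left out, and in ssy1T9 it was 0.03 from the 4 other arrays. RPN4 was called under none of the 14, at -0.15 to 0.08 in ssy1KO and -0.17 to 0.15 in ssy1T9. Calls over all genes in ssy1KO were 1962 without centring, 883 scaled, 740 without the dye term, 161 and 158 from parts of the loop, and down to 626 without KO/wt array 1. In ssy1T9 they were 812 without the dye term, 68 and 129 from parts of the loop, and down to 793 without T9/wt array 1. Between the mutants they were 6 without the dye term, 0 and 2 from parts of the loop, and down to 7 without KO/wt array 1 or T9/KO array 1. The cause was not tested. Each ratio pairs 2 strains on 1 array, but arrays of different pairs could not be matched by culture, because array numbers mark only the dye orientation.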
